A study of Mus musculus with 267 samples.

Results

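The cell cycle genes described here are 38 of the 21924 protein-coding genes of the mouse annotation (GENCODE vM21, mm10). They were taken by role and not by their response to IL-4, but with earlier results of these data known. Every open region or factor peak whose centre lay within 25 kb of the start of one of these genes, with no other protein-coding start nearer, was assigned to that gene. Regions within 1 kb of the start were called promoters and the others distal regions. This gave 131 of the 67742 regions of the C57 table, 116 of 54022 for BALB, 136 of 68932 for NOD, 122 of 60175 for PWK, 113 of 54755 for SPRET and 157 of 77955 in the C57 time course. In C57, 34 of the 38 genes had a promoter region, while Aurka, Ccnd2, Cdkn1a and Mcm7 had none.

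The libraries came from bone marrow-derived macrophages, cells grown out of bone marrow with the growth factor M-CSF, from female mice of 8 to 12 weeks and of the strains C57BL/6J, BALB/cJ, NOD/ShiLtJ, PWK/PhJ and SPRET/EiJ, here C57, BALB, NOD, PWK and SPRET. Cells were left untreated (basal) or given 20 ng/mL IL-4 for 24 h, and C57 cells also for 1 and 6 h. A further pair of groups carried a floxed Egr2 gene on both alleles (Egr2 fl/fl), without or with LyzM-Cre, which deletes floxed genes in myeloid cells. Chromatin immunoprecipitation and sequencing measured H3K27ac, a mark of active promoters and enhancers, H3K4me2 and H3K4me3, which mark promoters and enhancers to different degrees, RNA polymerase II (Pol II) and the factors EGR2, STAT6, PPARγ, PU.1 and C/EBPβ. Mostly 2 libraries stood for a group, and Pol II in the strains had 2 to 4. The libraries of a group are called biological replicates, and whether each came from its own mouse is not given in the sources used here, so p-values measure the spread between libraries.

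Cell division is driven by cyclins bound to cyclin-dependent kinases. D cyclins with Cdk4 or Cdk6 and E cyclins with Cdk2 phosphorylate the pocket protein Rb1, which frees E2F factors to switch on replication genes, whereas Cdkn1a, Cdkn1b and Cdkn2c block the kinases. Genes of G2 and mitosis are switched on later through the MuvB complexes, which bind a promoter element called CHR, often beside CCAAT boxes bound by NF-Y. Macrophages grown in M-CSF still cycle to some extent, and IL-4 acts in these cells through STAT6.

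The promoter letters of the genes carried these elements. Of the 38 genes, 31 matched an entry among RefSeq promoter sequences (GRCm38.p6, 250 bases before to 50 after the start), and Aurkb, Ccna2, Ccnd1, Ccnd2, Ccne2, Mcm4 and Rb1 had no entry. The 31 genes had 37 promoter entries, and a gene counted once if any of its entries had the letters. On either strand, CHR letters (TTTGAA or TTCGAA) were in 13 of the 31, or 41.9%, against 21.7% of 27025 gene symbols. CCAAT was in 22, or 71.0% against 41.1%, and CHR and CCAAT together in 13, or 41.9% against 9.65%. E2F letters (TTTCCCGC, TTTGGCGC, TTTCGCGC or TTTGCCGC) were in 11, or 35.5% against 2.60%. The EGR letters GCGTGGGCG were in 1 (Cdkn2c, the kinase inhibitor p18), or 3.23% against 0.707%. By role, CHR letters were in 8 of 10 G2 and mitosis genes and in none of the 5 G1 cyclin and kinase genes. E2F letters were in 6 of 8 replication genes (Cdc6, Cdt1, Mcm3, Mcm5, Mcm6 and Mcm7). These elements can overlap one another, and a match is a run of letters and not a measured site.

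The promoters of Top2a, which encodes the topoisomerase that untangles DNA before mitosis, of Mki67, the proliferation marker Ki-67, and of Ccnb2, a mitotic cyclin, are shown because they carry both elements of the G2 and mitosis group, with CHR and CCAAT letters in capitals. They lie at chr11:99024160-99024439, chr7:135716350-135716629 and chr9:70421525-70421804, all on the minus strand, and are printed 5′ to 3′ from RefSeq up to 30 bases past the start.
Top2a: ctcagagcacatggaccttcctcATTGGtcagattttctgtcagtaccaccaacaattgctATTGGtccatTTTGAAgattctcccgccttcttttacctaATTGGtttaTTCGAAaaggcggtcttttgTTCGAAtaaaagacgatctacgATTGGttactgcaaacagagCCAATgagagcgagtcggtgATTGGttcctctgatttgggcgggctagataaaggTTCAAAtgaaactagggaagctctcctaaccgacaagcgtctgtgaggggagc
Mki67: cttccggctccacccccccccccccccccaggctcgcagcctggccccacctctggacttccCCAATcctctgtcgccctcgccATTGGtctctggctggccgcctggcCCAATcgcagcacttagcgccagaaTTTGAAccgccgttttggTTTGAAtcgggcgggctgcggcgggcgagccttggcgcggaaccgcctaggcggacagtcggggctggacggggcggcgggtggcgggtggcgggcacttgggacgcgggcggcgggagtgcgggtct
Ccnb2: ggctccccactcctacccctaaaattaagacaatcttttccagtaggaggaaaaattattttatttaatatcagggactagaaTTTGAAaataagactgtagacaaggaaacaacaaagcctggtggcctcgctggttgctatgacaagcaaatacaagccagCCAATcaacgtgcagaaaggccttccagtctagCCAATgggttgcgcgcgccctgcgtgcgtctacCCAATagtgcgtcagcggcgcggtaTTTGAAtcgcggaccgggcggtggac

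The promoters of Cdk2, the kinase of the E cyclins, and of Mcm3, Mcm5 and Mcm6, subunits of the replicative helicase, are shown for their E2F letters, which are in capitals. They lie at chr10:128705022-128705301, chr1:20820283-20820562 and chr1:128359676-128359955 on the minus strand, in the order Cdk2, Mcm3 and Mcm6, and at chr8:75109259-75109538 on the plus strand for Mcm5.
Cdk2: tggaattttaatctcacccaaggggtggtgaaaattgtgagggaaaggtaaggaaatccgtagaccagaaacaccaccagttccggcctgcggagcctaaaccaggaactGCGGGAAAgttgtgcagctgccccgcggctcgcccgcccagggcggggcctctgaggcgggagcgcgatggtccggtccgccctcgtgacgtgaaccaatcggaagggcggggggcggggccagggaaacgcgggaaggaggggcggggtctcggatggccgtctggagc
Mcm3: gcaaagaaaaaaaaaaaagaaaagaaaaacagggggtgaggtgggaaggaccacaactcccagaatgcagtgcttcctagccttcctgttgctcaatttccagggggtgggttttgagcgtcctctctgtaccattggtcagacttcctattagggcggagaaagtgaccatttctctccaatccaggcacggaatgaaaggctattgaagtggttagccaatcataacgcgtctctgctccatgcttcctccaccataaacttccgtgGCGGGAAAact
Mcm5: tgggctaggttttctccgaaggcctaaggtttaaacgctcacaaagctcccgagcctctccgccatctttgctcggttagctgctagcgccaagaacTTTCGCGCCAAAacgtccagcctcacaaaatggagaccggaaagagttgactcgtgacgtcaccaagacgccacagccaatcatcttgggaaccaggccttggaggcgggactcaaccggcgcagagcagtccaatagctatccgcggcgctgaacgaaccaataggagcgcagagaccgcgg
Mcm6: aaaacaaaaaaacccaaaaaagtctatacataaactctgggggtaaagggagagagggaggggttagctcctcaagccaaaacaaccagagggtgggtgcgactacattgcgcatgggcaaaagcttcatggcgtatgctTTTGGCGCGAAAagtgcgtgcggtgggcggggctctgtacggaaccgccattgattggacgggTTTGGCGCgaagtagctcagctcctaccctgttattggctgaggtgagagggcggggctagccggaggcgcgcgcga

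Across the series, the 155 libraries with values held 4691644 to 29050468 reads (median 12936233), and values are given as tags per 10000000 reads. All 8 macrophage markers had a C57 promoter region, with a median H3K27ac of 572 tags in basal cells, and their summed H3K27ac was 4663 to 4894 tags in the basal and 2011 to 2080 in the 24 h C57 libraries. Of the markers of other cells, 2 of 6 for myeloid progenitors and 1 of 4 each for neutrophils, lymphocytes and fibroblasts had a region, at medians of 2.65, 16.3, 2.05 and 0.70 tags. The share of a library's H3K27ac reads inside the table's regions was 48.4% to 65.4% in basal and 28.7% to 57.1% in 24 h libraries. For H3K4me2 this share was 25.2% to 37.5% against 14.9% to 33.4%, for H3K4me3 58.0% to 73.5% against 44.4% to 64.6%, and for Pol II 17.6% to 37.2% against 24.9% to 39.2%. The median share of the H3K27ac libraries was 56.9% in basal and 42.6% in 24 h cells, although it was higher at 24 h in the first PWK (53.5% to 55.0%) and the first SPRET (48.4% to 51.8%) library, and for Pol II the medians were 32.05% and 31.83%. The main counts are also given after scaling the libraries by the median ratio over regions, and the part of the shares in the results was not tested. In bulk chromatin, fewer cycling cells and less mark in each cell cannot be told apart.

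In untreated C57 cells, the promoters of the cell cycle genes carried a wide range of H3K27ac. Their median was 74.4 tags over 34 promoters, from 11.5 to 727, against 87.2 over 10969 genes with a promoter region, and 14 of the 34 lay above that median. The most acetylated was Cdt1, which loads the helicase onto origins, at 727 ± 282 tags (SD, n = 2), followed by Cdkn1b, the inhibitor p27, at 398 ± 81.9 and Cdk4 at 263 ± 55.7. The least acetylated were Cdc6, the partner of Cdt1 at origins, at 11.5 ± 1.07 tags and Ccnb1, the main mitotic cyclin, at 20.2 ± 4.65. After 24 h of IL-4 the median of the 34 was 38.2 tags, against 59.0 over all genes, and again 14 lay above it.

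To ask what 24 h of IL-4 did to these genes over all strains, 30552 C57 regions were matched to regions of the other 4 strains. They included 75 regions of the cell cycle genes, namely 36 promoters of 30 genes and 39 distal regions. H3K27ac fell at 9 of the 36 promoters, against 20.3% of all 9186 matched promoters, and rose at 0, against 2.53% (limma over all matched regions, Benjamini-Hochberg adjusted p under 0.05). The 9 were Plk1, Top2a, Mki67, Aurkb and Birc5 of G2 and mitosis, the G1 genes Cdk2 and Ccne2, and the inhibitors Cdkn1b and Rb1. The log2 difference was below 0 at 35 of the 36 promoters, with a median of −0.48 against −0.32 over all promoters, and 17 had an unadjusted p under 0.05. The median of all promoters was thus also below 0, and the shares of all promoters that match these 2 counts are not given here. This fit did not pair same-numbered libraries. With the replicate number as a block, H3K27ac fell at 24 of the 36, against 46.1% of all promoters.

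**Figure D1:**
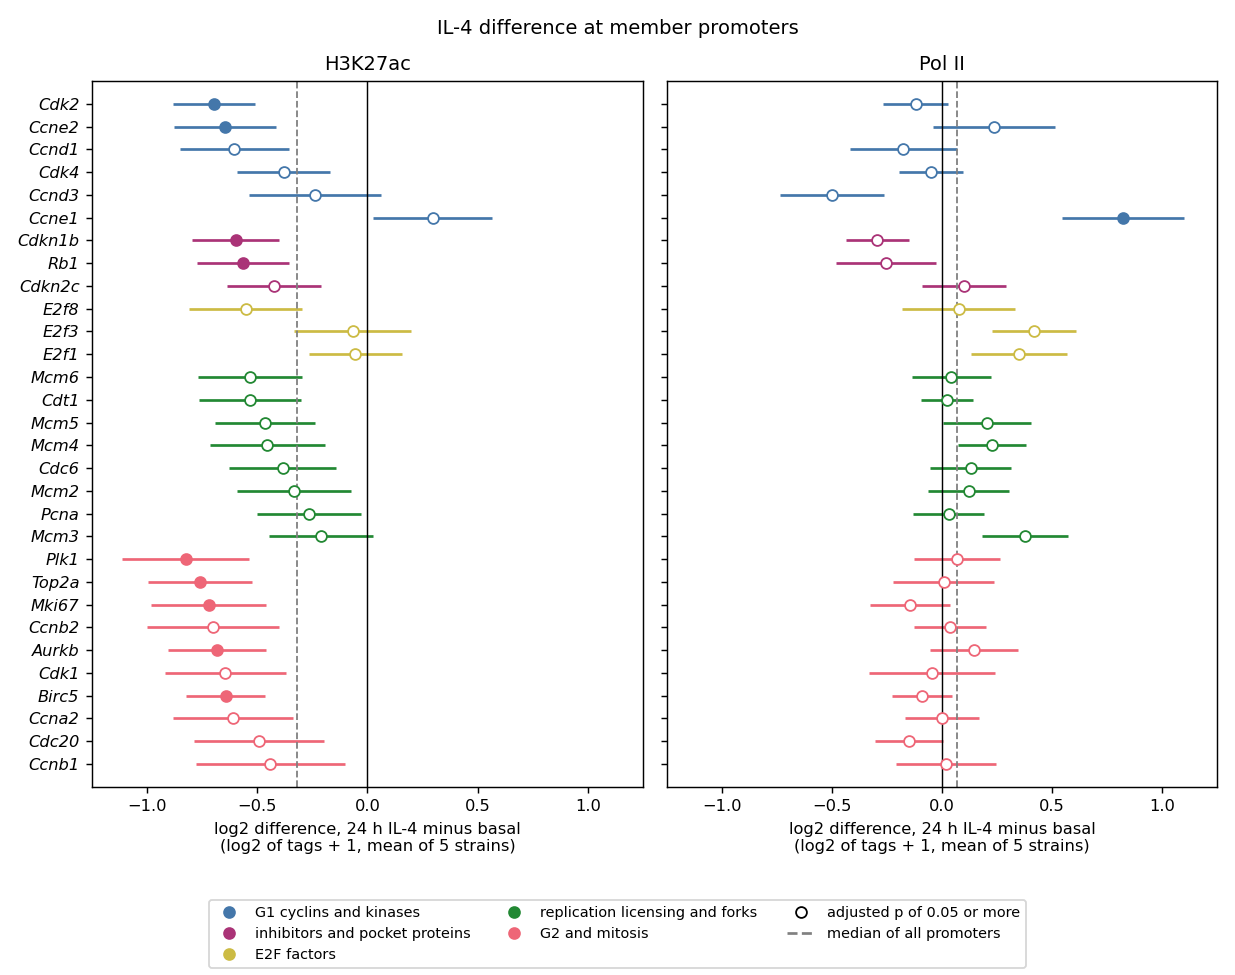
Log2 difference between 24 h IL-4 and basal cells (horizontal axis, log2 of tags + 1, mean of 5 strains) for H3K27ac and Pol II at the promoters of 30 cell cycle genes, coloured by role, with bars of 1 SE, filled points for an adjusted p under 0.05 and a dashed line at the median of all promoters. The H3K27ac points of G2 and mitosis lie between −0.82 and −0.44, whereas Ccne1 lies at 0.30 for H3K27ac and 0.82 for Pol II.

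The G2 and mitosis promoters held the lowest differences. At Plk1, a mitotic kinase (chr7:122158853-122159853), H3K27ac in basal cells was 25.8 and 45.6 tags for C57, 58.0 and 50.6 for BALB, 69.0 and 34.1 for NOD, 48.1 and 115 for PWK and 24.8 and 72.4 for SPRET. After 24 h of IL-4 it was 16.98 and 19.03, 41.4 and 22.9, 46.3 and 15.8, 26.3 and 63.9, and 15.9 and 37.7 in the same order. Each of the 10 libraries at 24 h was below the basal library of its own strain and number, while both 24 h libraries were below both basal ones in 2 strains. The log2 difference was −0.82 (SE 0.29, adjusted p = 0.032), and with median-ratio scaling the adjusted p was 0.14.

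At Top2a (chr11:99023904-99024904), basal H3K27ac was 31.9 and 62.8 tags for C57, 75.7 and 44.7 for BALB, 111 and 57.1 for NOD, 92.7 and 110.4 for PWK and 50.4 and 65.8 for SPRET. With IL-4 for 24 h the libraries held 19.5 and 23.6, 57.2 and 22.4, 52.1 and 21.4, 54.5 and 74.4, and 44.1 and 57.1. All 10 libraries at 24 h were again below their basal counterparts, and in 3 strains the groups did not overlap. The difference was −0.76 (SE 0.24, adjusted p = 0.017, or 0.063 with median-ratio scaling), and it passed the test without any single library.

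At Mki67 (chr7:135716054-135717054), basal H3K27ac was 147 and 121 tags for C57, 225 and 132 for BALB, 302 and 110.3 for NOD, 230.0 and 287 for PWK and 132 and 201 for SPRET. Treated libraries had 64.5 and 59.7, 233 and 84.8, 224 and 58.5, 112 and 172, and 97.9 and 107. The groups did not overlap in C57, PWK and SPRET, and 1 BALB library at 24 h exceeded its basal counterpart. The difference was −0.72 (SE 0.26, adjusted p = 0.037, or 0.11 with median-ratio scaling). A second promoter region of Mki67, at +537, was at −0.67 and did not pass (adjusted p = 0.069). Birc5, which encodes survivin of the chromosomal passenger complex, had 175 to 356 tags (median 255) over the 10 basal and 101 to 234 (median 176) over the 10 treated libraries, with no overlap in 4 strains. Its difference was −0.64 (SE 0.18, adjusted p = 0.0089, or 0.019 with median-ratio scaling). Aurkb, the kinase of the same complex, fell by 0.68 on the log2 scale (SE 0.22, adjusted p = 0.022, or 0.080 with median-ratio scaling).

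The other mitotic promoters had differences of −0.70 (Ccnb2) to −0.44 (Ccnb1) that did not pass in the fit without the replicate block. At Cdk1, the kinase of mitotic entry, basal H3K27ac was 21.03 and 42.78 tags for C57, 54.4 and 62.0 for BALB, 111 and 45.2 for NOD, 61.8 and 118 for PWK and 42.7 and 72.4 for SPRET. After IL-4 the values were 12.7 and 30.9, 54.2 and 28.1, 71.6 and 24.8, 38.4 and 79.2, and 26.4 and 40.9. The difference was −0.65 (SE 0.27, adjusted p = 0.073). At Ccnb1, basal H3K27ac was 16.96 and 23.53, 51.4 and 42.9, 131 and 16.7, 41.2 and 80.7, and 25.6 and 46.8 in the same strains. The 24 h libraries had 15.3 and 11.2, 61.0 and 24.8, 73.8 and 17.4, 27.6 and 47.7, and 20.3 and 36.6. The NOD replicates of Ccnb1 differed by more than the conditions did, and the difference was −0.44 (SE 0.34, adjusted p = 0.314).

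Among the G1 genes, Cdk2 had the lowest difference. Over 10 libraries it had 90.6 to 160.0 tags (median 125) in basal and 53.9 to 117 (median 72.4) in treated cells, with no overlap in 4 strains and a fall in all 10 same-numbered pairs. The difference was −0.70 (SE 0.19, adjusted p = 0.0067, or 0.016 with median-ratio scaling). Its region (chr10:128704640-128705640) also lies 945 bases from the start of Pmel, so that reads of both starts are counted there. Ccne2, an E cyclin, fell by 0.65 on the log2 scale (SE 0.23, adjusted p = 0.034, or 0.15 with median-ratio scaling), but its BALB difference was 0.64. A second promoter region of Ccne2, at +977, was at −0.19 and did not pass (adjusted p = 0.566).

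Ccnd1, the M-CSF responsive D cyclin, had 39.4 and 85.6 tags for basal C57, 19.84 and 25.02 for BALB, 135 and 73.8 for NOD, 117 and 54.0 for PWK and 54.7 and 65.8 for SPRET. With IL-4 for 24 h the libraries held 13.6 and 36.8, 27.1 and 17.6, 60.0 and 41.1, 112 and 53.4, and 31.7 and 46.3. The groups did not overlap in C57, NOD and SPRET, whereas the PWK and BALB values lay together, and the difference was −0.61 (SE 0.25, adjusted p = 0.062). The promoter of Ccnd2 was an open region only in PWK, with 5.15 and 8.61 tags in basal and 7.41 and 3.82 in treated cells, and in SPRET, with 5.13 and 4.61 against 6.17 and 3.23. That of Cdkn1a, the inhibitor p21, was a region only in BALB, with 77.9 and 109.6 against 69.3 and 50.5 tags, and in NOD, with 59.0 and 87.3 against 76.7 and 73.2. Neither gene had a promoter matched in all strains.

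The only promoter with a difference above 0 was that of Ccne1, the other E cyclin (chr7:38107074-38108074). Its basal H3K27ac was 118 and 67.7 tags for C57, 75.7 and 28.6 for BALB, 167 and 60.3 for NOD, 142 and 93.2 for PWK and 75.2 and 101 for SPRET. Treated libraries had 144 and 68.3, 118 and 53.4, 161 and 61.9, 125 and 101, and 182 and 100.2. The groups overlapped in all 5 strains, and the difference was 0.30 (SE 0.27, adjusted p = 0.404).

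**Figure D2:**
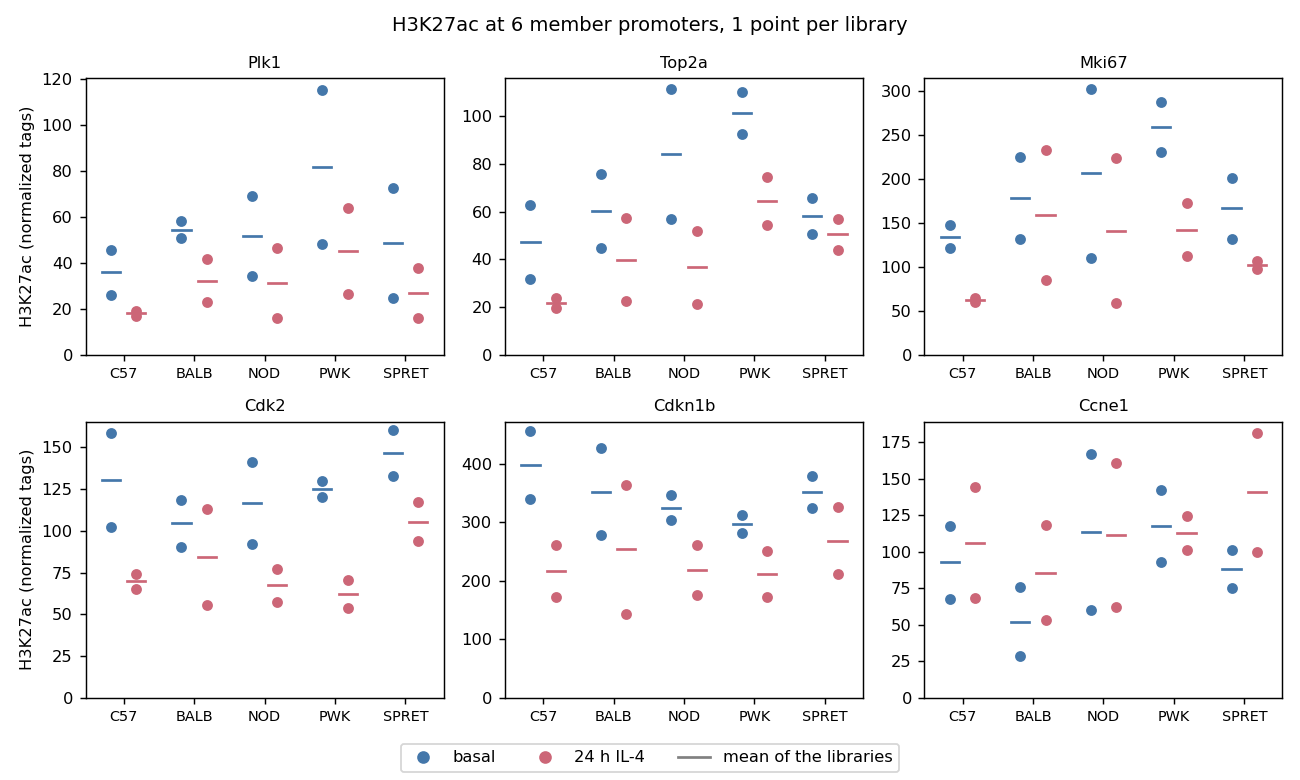
H3K27ac in tags per 10000000 reads (vertical axes) at the promoters of Plk1, Top2a, Mki67, Cdk2, Cdkn1b and Ccne1 in basal (blue) and 24 h IL-4 (red) libraries of 5 strains, with 1 point for each library and a line at the mean of 2 libraries. For Cdk2 both treated points lie below both basal points in 4 strains, whereas the points of Ccne1 overlap in every strain.

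Of the inhibitors and pocket proteins, Cdkn1b (chr6:134919842-134920842) had 456 and 340.1 tags for basal C57, 426 and 278 for BALB, 346 and 304 for NOD, 282 and 312 for PWK and 325 and 378 for SPRET. After IL-4 the values were 261 and 172, 364 and 144, 261 and 176, 251 and 173, and 325 and 211. Its H3K27ac fell by 0.60 on the log2 scale (SE 0.20, adjusted p = 0.024, or 0.038 with median-ratio scaling). Rb1 had 126 to 244 tags (median 200) in basal and 72.2 to 265 (median 127) in treated cells, with a difference of −0.56 (SE 0.21, adjusted p = 0.042). It kept its call without a single library in only 5 of 20 leave-outs.

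In the fit without the replicate block, the E2F factors and the replication genes had no promoter past the test. The block called 24 of the 36 promoters lower, and the roles of these 24 are not given here. At E2f1, basal H3K27ac was 78.0 and 59.9 tags for C57, 59.5 and 45.9 for BALB, 118 and 54.0 for NOD, 149 and 146 for PWK and 119.7 and 153 for SPRET. The 24 h libraries had 48.4 and 47.9, 95.6 and 46.2, 144 and 60.2, 147 and 139, and 124 and 96.9. The difference was −0.06 (SE 0.21, adjusted p = 0.854), with 5 of 10 pairs lower. E2f8, a repressing E2F, was at −0.55 (adjusted p = 0.095) and E2f3 at −0.07.

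At Pcna, the sliding clamp of DNA polymerases, basal H3K27ac was 152 and 113 tags for C57, 134 and 75.1 for BALB, 223 and 112 for NOD, 136 and 86.1 for PWK and 99.2 and 77.7 for SPRET. With IL-4 for 24 h the libraries held 102 and 96.5, 161 and 51.0, 126 and 68.7, 109 and 73.5, and 135 and 80.8, a difference of −0.26 (SE 0.24, adjusted p = 0.389). At Mcm2, a helicase subunit, basal values were 49.5 and 44.2, 41.9 and 24.4, 75.6 and 24.6, 77.2 and 52.5, and 36.8 and 52.0 tags in the same strains. The 24 h values were 36.5 and 15.1, 36.1 and 24.8, 52.8 and 16.3, 47.8 and 48.7, and 58.2 and 51.7, a difference of −0.33 (SE 0.26, adjusted p = 0.319). The 8 replication promoters ranged from −0.53 (Mcm6) to −0.21 (Mcm3). By role, the median difference over 1 promoter a gene was −0.66 for 10 G2 and mitosis genes, −0.56 for 3 inhibitors and pocket proteins, −0.49 for 6 G1 genes, −0.42 for 8 replication genes and −0.07 for 3 E2F factors. With median-ratio scaling these medians were −0.43, −0.33, −0.26, −0.19 and 0.17, so that the sign for the E2F factors turned. The roles were not tested against one another.

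Same-numbered H3K27ac libraries of a strain deviated together, so the fit was repeated with the replicate number as a block. H3K27ac then fell at 24 of the 36 promoters (46.1% of all 9186) and rose at 0 (4.35%). edgeR and DESeq2 on the recovered reads each called 8 of the 36 lower and 0 higher. The shares of all promoters that these tools called are not given here. With median-ratio scaling 3 passed (Cdk2, Birc5 and Cdkn1b, against 11.3% of all promoters), where the median of the 36 was −0.24 against −0.09 over all promoters. The count of 9 became 19 without the first 24 h BALB library, 18 without the first 24 h NOD library and 15 without the second basal NOD library. It became 4 without the second 24 h BALB, the first basal BALB or the first basal NOD library, and 3 without the second 24 h NOD or the second basal SPRET library.

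No difference between strains passed in these regions. The test of a strain by IL-4 interaction passed at 0 of the 75 regions for H3K27ac, Pol II, H3K4me2 and H3K4me3 alike (limma F test, with 0 at an unadjusted p under 0.05), against 0% of all matched regions for each of the 4 marks. With the replicate block it was also 0 of 75 for each, against 571, 11, 1 and 84 of all 30552 regions in the same order. Strain by strain, the median H3K27ac difference of the 36 promoters was −0.76 in C57, −0.31 in BALB, −0.65 in NOD, −0.50 in PWK and −0.24 in SPRET, beside −0.63, −0.31, −0.31, −0.22 and −0.17 over all promoters.

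Pol II was compared at the same promoters. It rose at 1 of the 36 promoters (3.42% of all promoters) and fell at 0 (2.71%), with 3 at an unadjusted p under 0.05 and a median of 0.03 against 0.07 over all promoters. The one that rose was Ccne1, from 13.1 to 137 tags (median 47.0) over 15 basal libraries to 39.7 to 156 (median 94.4) over 13 treated ones, higher in 11 of 13 same-numbered pairs. Its log2 difference was 0.82 (SE 0.28, adjusted p = 0.041). It was 1.85 for BALB, 0.90 for C57, 0.52 for NOD, 0.41 for PWK and 0.43 for SPRET.

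The BALB Pol II libraries stood apart. In them the median difference of all 9186 promoters was 0.54 and that of the 36 was 0.62, with 35 of 36 above 0, whereas in the other strains the medians were −0.17 to 0.06 over all promoters and −0.15 to −0.06 over the 36. Without BALB, the Ccne1 difference was 0.56 (SE 0.27, adjusted p = 0.194) and 0 promoters passed in either direction. edgeR and DESeq2 on the recovered reads gave 0 in either direction, with an edgeR adjusted p of 0.0907 for Ccne1, and Ccne1 passed in 12 of 28 fits that left out 1 library. Same-numbered Pol II libraries also deviated together, and with the replicate block 1 promoter rose (6.76% of all promoters) and 3 fell (9.47%).

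The next highest and the lowest promoters did not pass in the fit without the replicate block. E2f3 had Pol II of 24.1 to 128 tags (median 62.0) in basal and 56.4 to 135 (median 93.8) in treated cells, a difference of 0.42 (adjusted p = 0.156), and E2f1 18.6 to 118 (median 49.3) against 37.3 to 129 (median 83.8), a difference of 0.35 (adjusted p = 0.346). At the low end, Ccnd3, the third D cyclin, had 17.6 to 54.5 tags (median 32.2) against 11.9 to 41.4 (median 21.1), lower in 12 of 13 pairs, with a difference of −0.50 (SE 0.24, adjusted p = 0.18). Cdkn1b was at −0.29 (adjusted p = 0.199). The 3 mitotic promoters with the lowest H3K27ac differences had Pol II differences of −0.15 (Mki67), 0.01 (Top2a) and 0.07 (Plk1) that did not pass, from 89.3 to 242 tags (median 131) against 65.6 to 249 (median 128) for Mki67, 30.8 to 106 (median 45.5) against 26.6 to 143 (median 39.7) for Top2a and 30.1 to 126 (median 46.0) against 28.2 to 159.9 (median 49.8) for Plk1.

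H3K4me2 fell at all 36 promoters, as at 93.7% of all promoters, and it rose at 0 (0.207%). The median difference of the 36 was −0.57 against −0.58, and with median-ratio scaling 0 fell. H3K4me3 fell at 5 of the 36 (22.2% of all promoters) and rose at 0 (0.838%), with all 36 below 0 and a median of −0.24 against −0.22. The 5 were Ccnd3, at −0.69 (SE 0.17, adjusted p = 0.0080), E2f1, at −0.41 (SE 0.10, adjusted p = 0.0095), Rb1, at −0.32, Cdkn1b, at −0.26, and Cdkn2c, at −0.25. Their count was 2 with median-ratio scaling, 6 by edgeR and 12 by DESeq2, and leaving out 1 library moved it between 2 and 29. It was 29 without the second 24 h PWK or the first 24 h NOD library, 16 without the first basal PWK library and 9 without the first basal NOD library. It was 2 without the second 24 h or second basal NOD library or the first 24 h or second basal PWK library, and 3 without the first 24 h C57, any BALB, the second 24 h SPRET or the second basal SPRET library.

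Distal regions gave the largest differences. H3K27ac fell at 18 of the 39 matched distal regions (32.6% of all 11570) and rose at 1 (7.77%), with a median of −0.54 against −0.33. Pol II fell at 3 (9.73%) and rose at 0 (8.69%), H3K4me2 fell at 35 (67.6%) and rose at 1 (1.96%), and H3K4me3 fell at 3 (6.95%) and rose at 1 (5.13%). D cyclin regions made up 6 of the 18 H3K27ac falls, from 3 regions of Ccnd3, 2 of Ccnd1 and 1 of Ccnd2. The remaining matched distal regions of these genes, Ccnd3 +6150 and Ccnd1 −1751 and −3643, did not pass (limma adjusted p = 0.092, 0.454 and 0.735). Whether D cyclin regions fell more often than others was not tested.

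The region at +16649 from the Ccnd3 start, in an intron of the gene (chr17:47521200-47522200), had the largest H3K27ac fall in the fit over 5 strains. Its H3K27ac was 35.96 and 72.73 tags for basal C57, 47.0 and 92.9 for BALB, 63.2 and 160.3 for NOD, 51.5 and 105 for PWK and 69.2 and 71.8 for SPRET. Treated libraries had 12.73 and 21, 26.4 and 22.4, 30.4 and 51.2, 20.9 and 34.4, and 15.9 and 30.1, below both basal libraries in all 5 strains. The difference was −1.48 (SE 0.25, adjusted p = 0.00015), and Pol II there fell by 0.61 on the log2 scale (SE 0.16, adjusted p = 0.0084). The central 300 bases of this region (chr17:47521551-47521850, mm10, plus strand) are printed because its H3K27ac fall was the largest among the matched regions. Letters of CCAAT, read on either strand, are in capitals.
Ccnd3 distal region: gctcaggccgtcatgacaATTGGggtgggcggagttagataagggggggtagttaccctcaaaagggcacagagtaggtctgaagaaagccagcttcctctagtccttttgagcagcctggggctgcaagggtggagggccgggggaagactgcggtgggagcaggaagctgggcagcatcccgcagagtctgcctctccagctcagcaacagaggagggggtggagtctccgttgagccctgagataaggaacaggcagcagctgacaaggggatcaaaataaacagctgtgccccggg

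The other Ccnd3 regions that fell lay at +3052 and +18567, with differences of −0.68 and −0.88. Within Cdc6, regions at +9750 and +9964 (chr11:98917051-98918051 and chr11:98917265-98918265, introns) overlap and share reads, and in 10 basal libraries the first had 36.8 to 205 tags (median 164) against 21 to 97.6 (median 39.4) at 24 h. Its difference was −1.29 (SE 0.19, adjusted p = 4.26e-05). In E2f2, an activating E2F, the region at +13161 (intron, chr4:136185055-136186055) had 92.6 to 228 tags (median 161) in basal and 35.2 to 156 (median 83.2) in treated cells. It fell by 1.04 on the log2 scale (SE 0.21, adjusted p = 0.00071), with Pol II lower by 0.61 (−0.61, adjusted p = 0.014).

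The intergenic region at −8291 of Rb1 (chr14:73333613-73334613) had 101 to 275 tags (median 161) in basal and 38.2 to 119 (median 88.0) in treated cells, a difference of −0.98 (SE 0.24, adjusted p = 0.0037). Pol II there fell by 0.79 on the log2 scale (SE 0.16, adjusted p = 0.00052). The regions at −6587 of Cdt1 (−0.96), −10844 of Ccnd2 (−1.06) and +7345 of Ccnd1 (−0.98) also fell. The remaining falls, at Aurkb (−9580 and −5369), Ccnd1 (+2257), Cdkn1a (−11871 and −8859), Cdkn1b (+8264) and E2f2 (+7270 and +7725, which overlap), were between −0.67 and −0.45.

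The one distal region with more H3K27ac lay at −7126 of Cdc6, in an untranslated exon of the neighbouring Wipf2 (chr11:98900175-98901175). It had 6.78 and 4.99 tags for basal C57, 6.61 and 10.7 for BALB, 6.65 and 3.97 for NOD, 5.15 and 3.92 for PWK and 1.71 and 3.95 for SPRET. After IL-4 the values were 11.03 and 21.66, 42.9 and 28.6, 13.02 and 14.63, 0.67 and 8.59, and 7.93 and 14. Every strain but PWK had both treated libraries above both basal ones. The difference was 1.13 (SE 0.29, adjusted p = 0.0057), and it was 1.10 for H3K4me2 (adjusted p = 0.00050) and 1.24 for H3K4me3 (SE 0.29, adjusted p = 0.0057). In C57 it held EGR2 and PPARγ peaks at 24 h and PU.1 peaks in both conditions.

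**Figure D3:**
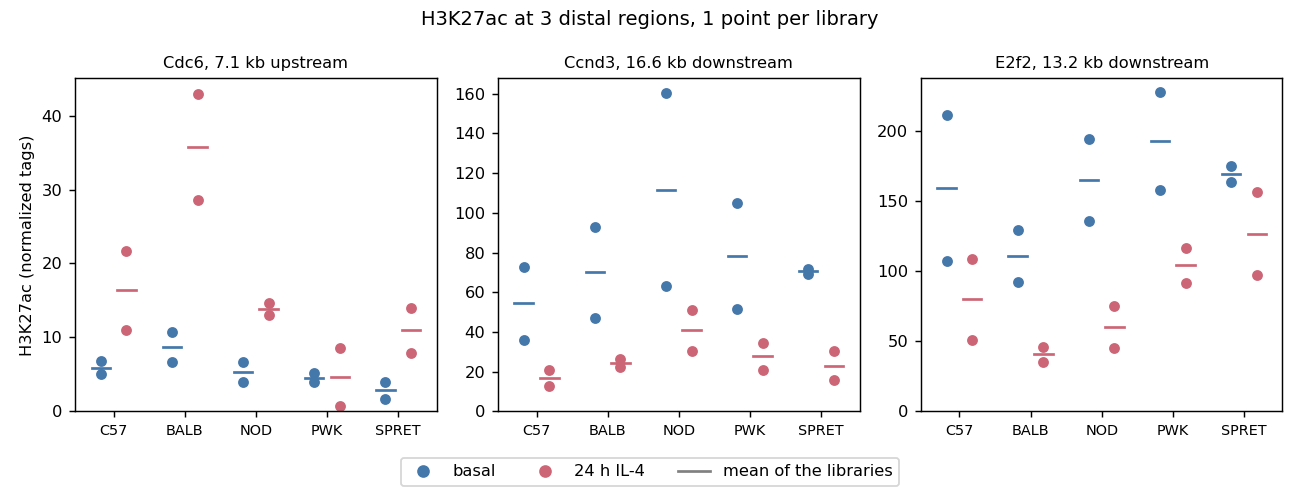
H3K27ac in tags per 10000000 reads (vertical axes) at 3 distal regions of Cdc6, Ccnd3 and E2f2 in basal (blue) and 24 h IL-4 (red) libraries of 5 strains, with 1 point for each library and a line at the mean of 2 libraries. Treated points lie above basal ones for Cdc6 in every strain but PWK, and below them for Ccnd3 in all 5 strains.

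Taken 1 strain at a time, with 2 libraries a group for the histone marks, few regions passed. In BALB, H3K27ac rose at 1 of 116 regions (2.26% of all regions passed), the one upstream of Cdc6 (here −7096), by 1.93 (adjusted p = 0.029), a call that edgeR and DESeq2 did not make. In SPRET it rose at 1 of 113 (1.19%), an intergenic region at −7891 of Mcm3 (chr1:20827703-20828703), from 1.71 and 6.58 to 34.4 and 32.3 tags, by 2.92 (adjusted p = 0.016). The BALB call was lost without the second 24 h library or either basal library, and the SPRET call without either 24 h library or the first basal one. For H3K27ac, 0 regions passed in C57 (0%), NOD (0.0566%) and PWK (0.535%), with an unadjusted p under 0.05 at 27, 7 and 6. Here edgeR gave 0 in each and DESeq2 3 for C57 and 0 in the others. With the replicate block the H3K27ac counts were 61 for C57 (38% of all regions), 6 for BALB (7.67%), 24 for NOD (19.9%), 5 for PWK (9.39%) and 6 for SPRET (7.03%).

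For Pol II, 0 regions of the cell cycle genes passed in C57 (0.319%), BALB (0.707%), NOD (0%), PWK (1.72%) and SPRET (1.05%), with 3 to 9 at an unadjusted p under 0.05. edgeR made 1 call, in BALB, and DESeq2 made 0, and the block gave 4 for NOD (6.5% of all regions), 4 for PWK (9.78%), 8 for SPRET (8.39%) and 0 in C57 (0.809%) and BALB (0%). For H3K4me2 it was 0 in C57 (0.236%), BALB (0.0111%), NOD (0.189%), PWK (0.314%) and SPRET (0%), although 76 C57 and 69 SPRET regions had an unadjusted p under 0.05 and 1 to 7 in the other strains. edgeR gave 0 in each and DESeq2 36 in C57 alone. For H3K4me3 it was 0 in C57 (0%), BALB (0%), NOD (0.0203%), PWK (0.0349%) and SPRET (0%), where 3 to 35 had an unadjusted p under 0.05 and edgeR and DESeq2 called 0. With 2 libraries a group the whole tables also gave few or no calls, so these counts say little about single genes.

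By size alone, regions whose mean changed at least 2.5-fold with 16 tags or more in either group were counted, with no test. In C57, 1 region of the cell cycle genes rose past this fold (3.46% of all regions) and 10 fell (7.55%). In BALB 2 rose (2.84%) and 5 fell (5.13%), in NOD 1 and 5 (3.24% and 5.14%), in PWK 1 and 3 (3.10% and 3.01%) and in SPRET 1 and 2 (2.64% and 0.939%). Cdc6 gave the largest steps in C57, where the intronic region at +9964 went from 257 and 198 to 56.0 and 49.2 tags, and in BALB, where that at +9799 went from 205 and 186 to 81.3 and 48.6. With median-ratio scaling the falls were 3, 0, 0, 1 and 1 in the order of the strains above. In C57 and BALB, the region upstream of Cdc6 had the largest step up. In NOD, E2f8 +4877 went from 8.31 and 7.94 to 33.3 and 15.8 tags and E2f2 +13135 from 135 and 194 to 44.8 and 74.9. In PWK, E2f8 −6720 went from 12.02 and 13.31 to 40.4 and 51.5 tags and Ccnd2 −10862 from 30.9 and 12.5 to 4.04 and 4.77. In SPRET the largest steps were those of Mcm3 −7891 and of Ccnd3 +16662, which went from 69.2 and 71.8 to 15.9 and 30.1.

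The C57 time course asked when these differences arose, and its basal and 24 h libraries are the same as those of the strain table. At 1 h, H3K27ac fell at 19 of the 157 regions of the cell cycle genes (8.36% of all regions) and rose at 0 (1.37%). The median was −1.05 against −0.63 over all regions. The share of reads inside the regions was 69.7% and 63.8% in the basal libraries but 44.0% and 20.5% at 1 h, so that the second 1 h library stood apart. The 19 falls became 0 with median-ratio scaling, 51 without the first 1 h library and 11 without the second, and the part of these shares in them was not tested. The 6 promoters among the 19 belonged to Cdk2, Cdk4, Cdt1 and Pcna, with a pair each for Cdk4 and Pcna. The 13 distal regions belonged to Birc5, Ccnd1, Ccnd2, Ccnd3, Cdc6, Cdk6, Cdt1 and E2f2.

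At the Cdk4 promoter, the kinase partner of the D cyclins, H3K27ac was 299.9 and 221.1 tags in basal cells, 107 and 47.2 at 1 h, 196 and 230.0 at 6 h and 194 and 154 at 24 h. Its 1 h difference was −1.84 (SE 0.57, adjusted p = 0.049), the lowest of any promoter nearest to its gene start. Pcna went from 151 and 114 to 44.8 and 29.6 tags at 1 h (−1.82, SE 0.53, adjusted p = 0.041), and was at 79.3 and 91.3 at 6 h and 102 and 96.5 at 24 h. By their means, both promoters were lowest at 1 h and lay between the 1 h and the basal level later. Cdk2 went from 159 and 102 to 41.7 and 31.7 tags at 1 h (−1.78, adjusted p = 0.047), and was at 46.2 and 71.2 and then 65.4 and 74.2.

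No other promoter passed at 1 h. Mki67 had 145 and 121 tags in basal cells, 118 and 64.4 at 1 h, 62.4 and 73.0 at 6 h and 64.5 and 58.4 at 24 h. E2f1 had 80.0 and 59.9, 75.8 and 25.5, 79.3 and 90.1 and 47.5 and 47.9 tags at the same times. Ccnd1 had 40.0 and 87.7 tags in basal cells against 13.9 and 18.9, 13.1 and 20.1 and 14.4 and 36.8. The smallest 1 h difference was that of Ccnb1, −0.35, from 16.96 and 23.53 to 12.4 and 19.3 tags. At 1 h the replicates lay far apart, as at Ccne1, with 91.2 and 16.9 tags.

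**Figure D4:**
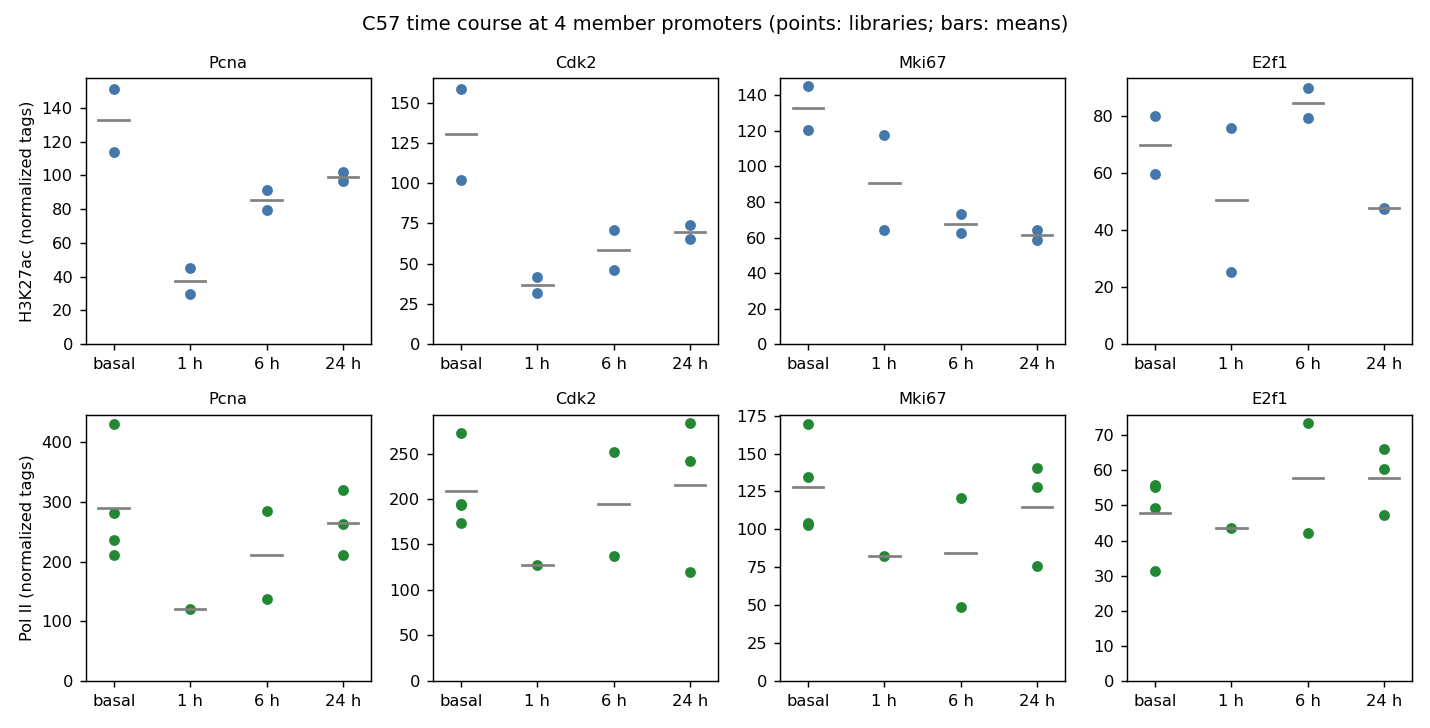
H3K27ac (upper row) and Pol II (lower row) in tags per 10000000 reads at the promoters of Pcna, Cdk2, Mki67 and E2f1 in C57 cells at 0 (basal), 1, 6 and 24 h of IL-4, with 1 point for each library and a line at the mean. H3K27ac of Pcna and Cdk2 is lowest at 1 h, that of Mki67 at 24 h, and Pol II at 1 h rests on 1 library.

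At 6 h, H3K27ac rose at 2 regions (2.67%) and fell at 2 (2.46%), all distal. E2f8 −6664 (intergenic, chr7:48887760-48888760) rose from 10.8 and 9.27 tags in basal cells to 95.5 and 68.2 at 6 h, a difference of 2.89 (SE 0.80, adjusted p = 0.042). It had 70.3 and 5.51 tags at 1 h and 56.0 and 28.9 at 24 h. Rb1 −24467 (intergenic, chr14:73349789-73350789) rose from 3.39 and 4.99 to 56.2 and 20.1 tags at 6 h (2.76, SE 0.79, adjusted p = 0.048), with 47.2 and 6.20 at 1 h and 16.1 and 5.91 at 24 h. At both regions the 1 h libraries lay far apart. The falls were at Ccnd2 −10847, from 8.82 and 20.7 to 1.54 and 0.61 tags (−2.85, adjusted p = 0.033), and at Ccnd3 +16667, from 36.6 and 74.2 to 9.24 and 7.91 (−2.48, adjusted p = 0.042). Ccnd3 +16667 was already at 3.09 and 16.5 tags at 1 h (−2.65, adjusted p = 0.027).

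Of the 6 h promoters, Ccnb2 had the lowest difference, −2.03 (adjusted p = 0.074), with 16.3 and 37.8 tags in basal cells and 7.70 and 3.65 at 6 h, and Ccne1 the highest, 0.53 (adjusted p = 0.731), with 118 and 67.7 against 145 and 116. At 24 h, 0 regions rose (1.13%) or fell (0.327%) by limma, where edgeR called 0, DESeq2 called 1 and 21 had an unadjusted p under 0.05. Ccne2 had the lowest promoter difference at 24 h, −1.63 (adjusted p = 0.159), with 20.4 and 28.5 tags in basal and 8.49 and 5.91 in treated cells, and Ccne1 the highest, 0.15. The 19 calls at 1 h became 12 by edgeR and 31 by DESeq2. They became 0 without the second basal library or without either 6 h library and 2 without the first basal library. The 4 calls at 6 h became 2 with median-ratio scaling and 0 without the second basal or either 6 h library.

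The region upstream of E2f8 was followed in the strain tables after its time course had been seen. It had 15.4 and 9.53 tags in basal BALB against 52.0 and 22.9 at 24 h, and the within-strain differences were 1.43 (SE 0.56, adjusted p = 0.197) in BALB, 1.77 (SE 0.54, adjusted p = 0.198) in PWK, 1.246 (SE 0.60, adjusted p = 0.431) in NOD and 0.11 (SE 0.44, adjusted p = 0.957) in SPRET. In C57 it held EGR2 peaks in both conditions and STAT6, PPARγ and C/EBPβ peaks at 24 h. EGR2 there was 41.7 and 47.0 tags in basal cells, 14.4 and 50.1 at 1 h, 50.6 and 111 at 6 h and 134 and 95.0 at 24 h.

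Pol II passed at 0 of the 157 regions at 1 h (0.0911%), 6 h (0.566%) and 24 h (0.677%), where 13, 8 and 5 had an unadjusted p under 0.05 and edgeR and DESeq2 called 0. At 1 h there was 1 library. Cdk1 had the lowest promoter difference at 1 h (−1.61) and 6 h (−1.07), with 14.98, 20.86, 38.6 and 42.5 tags in basal cells, 8.12 at 1 h, 8.76 and 17.1 at 6 h and 13.3, 19.1 and 21.8 at 24 h. Ccne1 had the highest at 6 h (1.06, adjusted p = 0.490) and 24 h (0.90, adjusted p = 0.553), with 36.8, 90.7, 31.6 and 31.4 tags in basal cells, 48.7 at 1 h, 55.9 and 146 at 6 h and 84.7, 121 and 51.3 at 24 h. The second basal library, at 90.7, exceeded 2 of the 3 treated ones. At 1 h the highest was Ccna2, 0.27, with 61.1 to 92.3 tags in 4 basal libraries and 90.4 at 1 h, and at 24 h the lowest was Ccnd1, −0.65.

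EGR2 was followed at 64 sites of 30 promoters and 34 distal regions near cell cycle genes, of 30675 sites in all. No site passed at 1, 6 or 24 h (0%, 0% and 0% of all sites), where 1, 2 and 0 had an unadjusted p under 0.05 and edgeR and DESeq2 called 0. The median difference was −0.44, 0.19 and 0.62, against −0.59, 0.17 and 0.66 over all sites, and 59 of the 64 lay above 0 at 24 h. The 24 h median of all sites was thus also above 0, and the share of all sites above 0 is not given here. The site at +407 of Cdkn2c, whose promoter carried the EGR letters, had 69.3 and 96.7 tags in basal cells and 232 and 182 at 24 h. The site at −40 of Pcna had 207 and 224 against 428 and 224, and that upstream of Cdc6 18.3 and 14.8 against 43.5 and 18.2. The replicates of the last pair of sites lay as far apart as the conditions.

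Peak lists, 1 for each group and so with no test, placed these factors at many of the promoters. In C57, EGR2 peaks were at the promoters of 18 of the 38 genes in basal cells and 23 at 24 h, STAT6 peaks at 15 and 14, PPARγ peaks at 2 and 11, PU.1 peaks at 29 and 30 and C/EBPβ peaks at 5 and 11. Over the 34 genes with a C57 promoter region, 52.9% had an EGR2 peak in basal cells, against 32.97% of all 10969 such genes, and 67.6% against 63.3% at 24 h. For PU.1 it was 82.4% against 71.8% and then 85.3% against 69.5%. For STAT6 it was 44.1% against 40.8% and then 38.2% against 38.9%, and for C/EBPβ 14.7% against 16.3% and then 32.4% against 31.1%. PPARγ was at 5.88% of the 34 in basal cells against 6.85%, and at 32.4% against 34.1% at 24 h. Longer lists hold more peaks, and with the basal and 24 h lists made equally long the 24 h counts were 16 for EGR2, 9 for STAT6, 1 for PPARγ, 30 for PU.1 and 6 for C/EBPβ. Over all protein-coding genes, the counts of these 24 h lists were 3409, 3042, 646, 8260 and 1686 in the same order. In basal cells they were 3784, 4705, 791, 8719 and 1902, so over all genes the count was lower at 24 h for each factor. Among the 38 genes it was lower for EGR2, STAT6 and PPARγ. It was not lower for PU.1 (29 and then 30) and C/EBPβ (5 and then 6).

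In all 5 strains, EGR2 peaks lay at the promoters of 12 genes in basal cells (Ccnb1, Ccnd3, Ccne1, Cdk4, Cdk6, Cdkn2c, E2f1, E2f8, Mcm2, Pcna, Rb1 and Rbl1), and of 17 at 24 h, which added Aurkb, Birc5, Bub1, Cdc20 and Cdt1. PU.1, the lineage factor of macrophages, was at 26 and 21 promoters in all 5 strains. STAT6 was at 2 (Cdt1 and E2f8, then Cdkn1a and E2f8), PPARγ at 0 and then 2 (Cdk4 and Cdt1), and C/EBPβ at 4 and 5, of which Cdk4, E2f8 and Mcm3 in both conditions. Over the 34 genes with a C57 promoter region, peaks in all 5 strains were at 35.3% for basal EGR2 against 19.01% of the 10969 genes, and at 50% against 37.4% at 24 h. PU.1 was at 73.5% against 56.5% and then 58.8% against 49.8%. For STAT6 the shares were 5.88% against 3.17% and then 2.94% against 5.15%, for PPARγ 0% against 2.63% and then 5.88% against 6.76%, and for C/EBPβ 11.8% against 8.81% and then 14.7% against 15.9%.

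**Figure D5:**
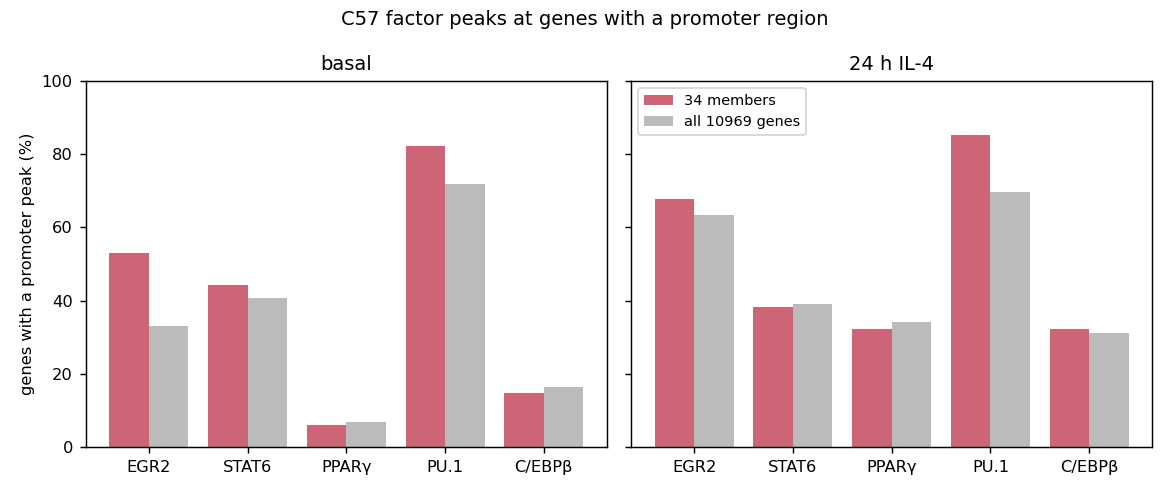
Share in % (vertical axis, from 0) of genes with a C57 promoter region that have a promoter peak of each factor in basal and 24 h IL-4 cells, for the 34 cell cycle genes (red) and all 10969 genes (grey). Each bar rests on 1 peak list, and the widest gap is that of EGR2 in basal cells, 52.9% against 32.97%.

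The Egr2 genotypes were compared at 4677 sites where EGR2 was induced by IL-4, of which 3 belonged to cell cycle genes, the Cdk6 promoter (−302), an Rb1 intron (+954) and an E2f2 intron (+7241). At 24 h 0 of the 3 differed between genotypes for STAT6 (0.0214% of all sites), PPARγ (0%), C/EBPβ (8.25%), PU.1 (9.45%), H3K27ac (24.7%) and H3K4me2 (9.09%), where edgeR called 0, DESeq2 was not run and the unadjusted p was under 0.05 at 1 site for PU.1 and 1 for H3K4me2. At the E2f2 site, PU.1 was 30.8 and 26.6 tags in Egr2 fl/fl and 15.6 and 15.7 in LyzM-Cre Egr2 fl/fl cells (−0.83, SE 0.30, adjusted p = 0.084), and PPARγ 51.2 and 45.7 against 19.5 and 24.6. Its C/EBPβ was 420 and 217 against 328 and 165, and its H3K27ac 294 and 353 against 271 and 276. At the Cdk6 site, H3K4me2 was 41.9 and 69.9 tags in Egr2 fl/fl and 85.2 and 99.2 with LyzM-Cre (0.75, adjusted p = 0.117). In the same order, its PU.1 was 3.43 and 3.09 against 11.14 and 1.01 tags, and its PPARγ 4.1 and 3.15 against 0 and 0. At the Rb1 site, PU.1 was 4.28 and 1.85 against 3.34 and 7.07 tags, PPARγ 10.24 and 28.36 against 31.28 and 14.21 and STAT6 4.98 and 2.66 against 3.09 and 6.76, with overlapping groups for each. Pol II had 1 library a group, with 104 against 82.5 tags at the E2f2 site. These tables hold no measure of the deletion itself.

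Further genes of the pathway, in lists drawn up with earlier results of these data known, were counted at their matched promoters. H3K27ac fell at 4 of 20 other replication genes with a matched promoter, of 31 listed (Rrm2, Gmnn, Rpa2 and Rfc3), at 6 of 23 other mitosis genes, of 30 listed (Cenpf, Nek2, Cks2, Incenp, Cdc25b and Kif23) and at 4 of 15 other regulators, of 19 listed (Lin9, Ccng2, Rbl2 and Cdkn2d), and rose at 0 of each, against falls at 20.3% of all promoters. Their median differences were −0.42, −0.46 and −0.40, against −0.32 over all promoters. Pol II passed at 0 of each list in either direction, H3K4me2 fell at 19, 23 and 15, against 93.7% of all promoters, and H3K4me3 fell at 2, 6 and 2, against 22.2%.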

How the data were processed

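Chromatin immunoprecipitation of H3K27ac, H3K4me2, H3K4me3, Pol II and 5 factors was analysed as deposited. Per the labels and the methods of the study, the authors aligned reads with Bowtie2 to each strain's own genome, shifted them to mm10 and counted them with HOMER. The deposited signal values are tags normalized to 10000000 reads, counted in 1 kb around open chromatin for histone marks and Pol II and in 300 bases for factors. The deposited score columns of the peak lists were written by the authors' peak caller and ranked peaks here. Multiplied by the library total, signal values were whole reads within 0.1. Of the columns, 4 matched no sample and were not used.

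Tables were fitted whole with limma 3.58.1 (trend) on log2(tags + 1) in R 4.3.3, with Benjamini-Hochberg adjustment over all regions of a fit and a threshold of 0.05. The fit over 5 strains had a strain term. Fold changes on this scale understate those of low regions. Alternatives were a pseudocount of 5, a filter on low values (16 tags, 8 for Pol II), median-ratio scaling, a replicate block, edgeR 4.0.16 and DESeq2 1.42.0 on the recovered reads with library totals as sizes, transcript starts, matching within 200 bases, 10 kb windows and leaving out each library. The fit without BALB was added after seeing the data. Scripts (Python 3.11.15, pandas 2.3.3) were tested on simulated data.

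The members and gene lists were chosen with earlier results of these data known. Every library's H3K27ac values were given for 12 members (Ccnd1, Ccnd2, Cdkn1a, Cdkn1b, E2f1, Mcm2, Pcna, Ccnb1, Cdk1, Top2a, Mki67 and Plk1), together with the promoters of largest rise and fall in each fit. Ccne1, the distal regions and the upstream region of E2f8 were followed further after their values were seen. Same-numbered basal and 24 h libraries of a strain deviated together for H3K27ac (10 of 10 pairs with a correlation over 0.1, 0.261 to 0.492) and Pol II (13 of 13, 0.118 to 0.469), so these numbers were taken to pair samples. They did so in 8 of 10 pairs for H3K4me2 and 8 of 10 for H3K4me3, and not throughout the time course, so there they were not. With 2 libraries a group, both pairs of a strain give the same correlation, so the 10 pairs of a histone mark hold 5 separate values. The main fits had no replicate term, and the pairing entered the fits only as the replicate block. All 75 pairs of replicates differed beyond counting noise (chi-square over degrees of freedom 2.01 to 17.5). Depth is given in the report.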

Additional observations from a re-analysis of the deposited data

Results flagged for a closer look

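Pol II at the promoter of Ccne1, an E cyclin, was 90.68 tags in 1 basal C57 library and 36.81, 31.62 and 31.39 in the other 3, a gap that is large for the range of 4 values by Dixon's test. At the promoter of Plk1, a mitotic kinase, Pol II was 31.2 tags in 1 basal C57 library against 44.13, 46.09 and 43.54 in the others, which passed the same test. These were 2 of 14 groups of 4 or more libraries tested, and chance alone would be expected to single out about 1 in 20 groups. The cause was not tested in either case.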

How the results depend on the processing

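Depth and 2 libraries a group limit single regions within a strain. The count of promoters with lower H3K27ac moved with library scaling, with the replicate block and with leaving out a library. Of 554 refits of named regions that had passed the test, 430 still passed, 124 no longer did and 0 changed sign. The E2f1 and E2f3 promoters, which had not passed, were not among them, and the E2F median went from −0.07 to 0.17 with median-ratio scaling. Where a count below moved, the cause was not tested, except that leaving out a library also leaves fewer samples.

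Median-ratio scaling gave 3 promoters with lower H3K27ac over 5 strains, 1 with lower Pol II, 0 with lower H3K4me2 and 2 with lower H3K4me3, and in the time course 0 regions at 1 h, 2 at 6 h and 1 at 24 h. It gave 1 site for H3K4me2 between Egr2 genotypes. edgeR gave 0 H3K27ac regions in BALB and 2 in SPRET, 1 Pol II region in BALB, 0 promoters with higher Pol II over 5 strains and 12 regions at 1 h. DESeq2 gave 3 H3K27ac regions in C57, 0 in BALB, 36 H3K4me2 regions in C57, 0 promoters with higher Pol II and 12 with lower H3K4me3 over 5 strains, 31 regions at 1 h and 1 at 24 h. The filter gave 2 H3K27ac regions in SPRET, 13 promoters with lower H3K4me3 and 2 regions at 6 h, and a pseudocount of 5 gave 8 promoters with lower H3K4me3. Starts of any transcript gave 1 SPRET Pol II region, 1 promoter with lower Pol II and 1 region at 24 h. Without BALB, chosen after seeing the data, 0 promoters had higher Pol II.

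With the replicate block, H3K27ac called 61 regions in C57, 6 in BALB, 24 in NOD, 5 in PWK and 6 in SPRET, and Pol II 4 in NOD, 4 in PWK and 8 in SPRET. Over 5 strains it called 24 promoters lower for H3K27ac and 3 lower for Pol II. For marks and times whose numbers do not pair samples, the block called 67 H3K4me2 regions in SPRET (30.5% of all regions). It called 40 H3K4me3 regions in C57 (17%), 3 in BALB (3%) and 41 in PWK (17.2%). Over 5 strains it called 29 promoters with lower H3K4me3, for which the share of all promoters is not given here. In the time course it called 48, 12 and 5 H3K27ac regions at 1, 6 and 24 h (25.8%, 13.7% and 7.86%). Between Egr2 genotypes it called 1 H3K4me2 site at 24 h (12% of all sites). It moved no other count by over 1.5 times.

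For the fold rule, C57 gave 0 rises with a pseudocount of 5 and 3 with no filter, and 31 falls at 2-fold, 6 with a pseudocount of 5 and 3 with median-ratio scaling. BALB gave 1 rise with a pseudocount of 5 and 12 falls at 2-fold, 0 with median-ratio scaling and 1 within 10 kb. NOD gave 2 rises at 2-fold, 0 with a pseudocount of 5, 3 with no filter and 2 with median-ratio scaling, and 13 falls at 2-fold, 3 with a pseudocount of 5, 0 with median-ratio scaling and 2 within 10 kb. PWK gave 8 falls at 2-fold, 1 with median-ratio scaling and 0 within 10 kb. SPRET gave 3 rises at 2-fold and 2 with no filter, and 1 fall each with a pseudocount of 5, with median-ratio scaling and within 10 kb.

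Among the peak lists, keeping only peaks above the median score gave 11 basal EGR2 promoters, 6 basal and 4 treated STAT6, 0 basal PPARγ, 19 basal and 19 treated PU.1 and 6 treated C/EBPβ promoters. A window of 500 bases gave 1 basal and 7 treated PPARγ and 3 basal C/EBPβ promoters. Lists of equal length gave 9 STAT6, 1 PPARγ and 6 C/EBPβ promoters at 24 h (3042, 646 and 1686 over all protein-coding genes).

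Leaving out 1 library moved the H3K27ac counts between 0 and 2 in BALB and 0 and 1 in SPRET, Pol II between 0 and 1 in BALB, and H3K4me2 between 0 and 104 in C57 (104 without the first 24 h library), 0 and 69 in BALB (69 without the first 24 h library), 0 and 58 in NOD (58 without the first basal library) and 0 and 32 in SPRET (32 without the first basal library). Over 5 strains it moved lower H3K27ac between 3 and 19, higher Pol II between 0 and 1, lower H3K4me2 between 31 and 36 and lower H3K4me3 between 2 and 29. In the time course it moved H3K27ac between 0 and 51 at 1 h, 0 and 6 at 6 h and 0 and 3 at 24 h, Pol II between 0 and 1 at 6 h and EGR2 between 0 and 1 at 1 h. Fold rule rises and falls ranged from 0 to 1 and 11 to 19 in C57, 1 to 3 and 3 to 16 in BALB, 1 to 3 and 5 to 27 in NOD, 1 to 1 and 2 to 7 in PWK, and 2 to 2 and 1 to 3 in SPRET. All other counts tested this way stayed at 0.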
